A study of Mus musculus with 36 samples.

Results

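Malat1, Neat1, Miat, Kcnq1ot1, Lncpint and Snhg11, long RNAs known mostly as nuclear transcripts, were followed in mouse brain; they are 6 of the 54532 genes in the table. They were selected on their measured levels in these same libraries, by gene symbol, and all 6 were among the 18438 genes with enough counts to be tested. Their levels and differences are therefore given as a description, with no p, and their number past a threshold is only set beside the share of all genes past it. Where in the cell the RNAs lay was not measured, so "nuclear" rests on general knowledge. GENCODE M21 annotates Malat1, Neat1, Miat and Lncpint as long intergenic RNAs, Kcnq1ot1 as antisense, and Snhg11 as a protein-coding gene, which goes against its label as a noncoding RNA.

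RNA came from whole brain of WT C57BL/6 (wild-type) mice at day 19, the peak of disease in experimental autoimmune encephalomyelitis (EAE), a model of inflammatory demyelination. Naive mice (n = 8) were healthy, and n counts libraries here and below. The other mice had EAE, induced with a MOG35-55 emulsion in complete Freund's adjuvant under the skin and pertussis toxin on that day and the next, and were left without gavage (untreated, n = 9), gavaged daily with corn oil (vehicle, n = 9), or gavaged daily with 100 mg/kg/day of trans,trans-farnesol dissolved in that oil (n = 10). Farnesol is an isoprenoid alcohol. No group received adjuvant and toxin alone, so their effects and those of the disease cannot be told apart, and age and sex were not given in the sources used here. The farnesol libraries are also given as replicates 1 to 3 and replicates 4 to 10.

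Many long RNAs are kept in the nucleus, where they scaffold protein bodies or act on the chromatin that made them. Malat1 concentrates in nuclear speckles, which store splicing factors. Neat1 is the scaffold on which paraspeckles assemble, bodies that hold RNA-binding proteins such as Sfpq and Nono. Miat (also called Gomafu) forms separate nuclear spots in neurons and binds splicing factors. Kcnq1ot1 is transcribed from the paternal chromosome within the gene Kcnq1 and silences neighbouring imprinted genes. Lncpint is a p53-induced RNA that binds Polycomb repressive complex 2, and Snhg11 carries small nucleolar RNAs in its locus.

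Depth was 14.71 M to 24.21 M counts per library over all 36 libraries, and the 6 RNAs together held 0.174% to 0.479% of counts. The ribosomal RNA gene CT010467.1 measured 1284 to 2784 CPM (counts divided by the TMM-scaled library total in M) in untreated and vehicle libraries and 1613 to 2430 CPM in farnesol replicates 1 to 3. It measured 7464 to 10710 CPM in naive libraries and 5091 to 17690 CPM in farnesol replicates 4 to 10. Rn7sk, a short nuclear RNA that has no poly(A) tail, split the same way, with at most 3.81 CPM in untreated, 4.01 CPM in vehicle and 4.94 CPM in farnesol replicates 1 to 3, and at least 6.34 CPM in naive and 8.27 CPM in farnesol replicates 4 to 10. No label names a batch, and whether poly(A) RNA was selected was not given in the sources used here. Untreated and vehicle brains were compared with naive brains only across this split, so split and disease cannot be told apart there. Farnesol replicates 4 to 10 and naive libraries lay on the same side of it, as did farnesol replicates 1 to 3 and vehicle libraries. In 3 libraries (naive 4, untreated 3 and farnesol 2) cerebellar granule neuron markers summed to only 142 to 186 CPM, and Sbp, a gene of salivary glands, was above 1 CPM in untreated 1 to 5 and vehicle 3 to 5. The brain label was borne out by neuron markers (Rbfox3, Snap25, Syt1, Map2, Eno2 and Stmn2), which summed to at least 4980 CPM in every library.

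The transcripts differ widely in length and abundance. Malat1 (ENSMUSG00000092341) lies at chr19:5795690-5802672 (GRCm38, minus strand) and is a single exon block of 6.98 kb. Neat1 (ENSMUSG00000092274) lies on the same strand at chr19:5824708-5845478 and spans 20.77 kb. Miat (ENSMUSG00000097767, chr5:112213228-112229395, minus strand) has 9.29 kb of exons, Lncpint (ENSMUSG00000044471, chr6:31082565-31220488, minus strand) 7.38 kb in 13 exon blocks, and Snhg11 (ENSMUSG00000044349, chr2:158375638-158386145, plus strand) 8.52 kb. Kcnq1ot1 (ENSMUSG00000101609, chr7:143203458-143296549, minus strand) is one unspliced block of 93.09 kb inside the gene Kcnq1, which lies on the opposite strand. Per kilobase of exon, mean naive levels were 136 CPM for Malat1, 104 for Snhg11, 14.4 for Miat, 2.60 for Neat1, 0.322 for Lncpint and 0.261 for Kcnq1ot1.

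Annotated neighbours share bases with several of them, and whether counting used strand was not given in the sources used here, so reads from both strands cannot be told apart. Gm26953, on the opposite strand of Miat, shares 2260 of its exon bases (24.3% of Miat) and itself held 2 to 24 counts per library. Kcnq1 shares 121 exon bases with Kcnq1ot1 and held 4 to 32 counts per library, against 318 to 889 for Kcnq1ot1. The transcript 2210408F21Rik, on the opposite strand, shares 138 bases with the start of Lncpint and held 94 to 213 counts per library, against 19 to 102 for Lncpint. Gm37376, on the opposite strand of Malat1, shares 453 bases and was at 0 counts in every library.

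RefSeq start-site windows (build GRCm38.p6; 250 bases before the start to 50 after it) matched 5 of the 6 RNAs by symbol, all except Neat1. They are shown for the 2 pairs whose levels varied together most closely among libraries of a group, Malat1 with Kcnq1ot1 and Snhg11 with Miat. The windows lie at chr19:5802623-5802922 (minus strand) for Malat1, chr7:143296498-143296797 (minus strand) for Kcnq1ot1, chr2:158375463-158375762 (plus strand) for Snhg11 and chr5:112228899-112229198 (minus strand) for Miat. Each is written in its own strand's direction, and capitals mark matches to 7 motifs searched on both strands. These were the CCAAT box (CCAAT), the GC box (GGGCGG), the TATA box (TATAAA), the E-box (CACGTG), the cyclic AMP response element (TGACGTCA), a heat shock factor unit pair (GAANNTTC) and the STAT site (TTCNNNGAA). No match overlapped another. For Snhg11 and Miat the RefSeq start lies inside the GENCODE gene.
Malat1: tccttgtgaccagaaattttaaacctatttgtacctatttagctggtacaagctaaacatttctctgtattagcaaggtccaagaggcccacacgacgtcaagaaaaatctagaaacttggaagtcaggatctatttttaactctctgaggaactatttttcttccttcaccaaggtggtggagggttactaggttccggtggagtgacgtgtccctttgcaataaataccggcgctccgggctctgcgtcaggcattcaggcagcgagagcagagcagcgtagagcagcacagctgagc
Kcnq1ot1: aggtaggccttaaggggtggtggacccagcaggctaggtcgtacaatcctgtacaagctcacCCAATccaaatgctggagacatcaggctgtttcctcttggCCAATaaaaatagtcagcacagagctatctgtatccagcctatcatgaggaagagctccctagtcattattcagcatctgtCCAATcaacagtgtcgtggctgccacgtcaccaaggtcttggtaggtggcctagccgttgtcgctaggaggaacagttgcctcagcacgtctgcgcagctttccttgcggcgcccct
Snhg11: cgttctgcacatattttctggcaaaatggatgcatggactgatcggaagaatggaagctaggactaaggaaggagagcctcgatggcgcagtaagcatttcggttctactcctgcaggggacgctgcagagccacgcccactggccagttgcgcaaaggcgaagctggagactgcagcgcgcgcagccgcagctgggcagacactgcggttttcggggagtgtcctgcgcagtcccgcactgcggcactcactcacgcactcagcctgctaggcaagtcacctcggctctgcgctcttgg
Miat: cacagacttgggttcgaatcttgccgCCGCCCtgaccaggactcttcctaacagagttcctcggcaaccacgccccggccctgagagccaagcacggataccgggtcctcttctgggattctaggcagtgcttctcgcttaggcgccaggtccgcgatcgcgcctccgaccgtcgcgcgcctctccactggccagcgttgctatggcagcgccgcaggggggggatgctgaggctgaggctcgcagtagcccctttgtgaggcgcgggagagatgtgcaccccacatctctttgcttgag
The Kcnq1ot1 window holds CCAAT 3 times, starting 188, 148 and 67 bases before the start. The background was 32851 windows of 300 bases, from which a chromosome that holds none of these RNAs was left out. These are meant by all windows here and in the GC median. Of them, 37.4% hold CCAAT at least once and 3.37% at least 3 times. The Miat window holds GGGCGG once, on the opposite strand, a motif found in 35.7% of all windows. No searched motif was in the Malat1 or Snhg11 window, and neither member of a pair shares a searched motif with the other. In Lncpint, whose RefSeq window (chr6:31218425-31218724) lies downstream of the GENCODE start, CACGTG occurs once, as in 7.15% of all windows. Of the other motifs searched, TATAAA is in 13.6% of all windows, TGACGTCA in 1.79%, GAANNTTC in 7.86% and TTCNNNGAA in 8.30%. GC content was 47.0% in the Malat1 window, 53.3% in Kcnq1ot1, 60.0% in Snhg11 and 64.3% in Miat, against a median of 52.7%.

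**Figure D1:**
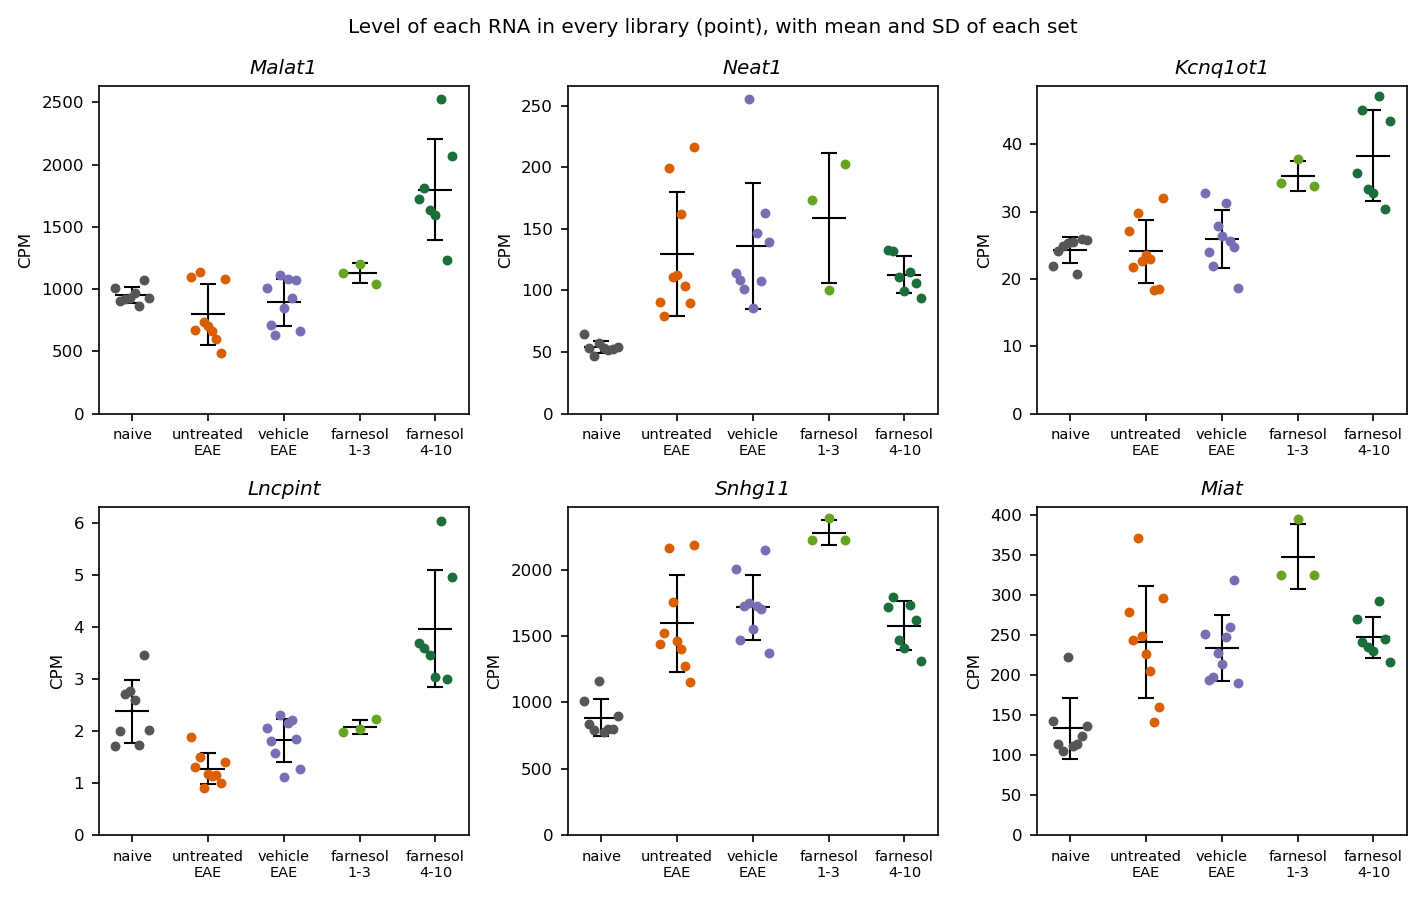
Level of each RNA in CPM (vertical axes, from 0) in every library (points), by group on the horizontal axes, with the farnesol libraries as replicates 1 to 3 and 4 to 10. Horizontal bars are means and vertical bars SDs; Neat1 in naive libraries (46.4 to 64.3 CPM) lies below every other library, and Malat1 in farnesol replicates 4 to 10 (1240 to 2530 CPM) lies above all of them.

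Malat1, the speckle RNA, was highest in farnesol replicates 4 to 10. Per kilobase of exon its mean was above that of Snhg11 in naive libraries and in farnesol replicates 4 to 10 (258 against 185 CPM), and below it in untreated (114 against 187), vehicle (128 against 202) and farnesol replicates 1 to 3 (161 against 268 CPM). It measured 864 to 1070 CPM in naive brain (median 930), 486 to 1140 in untreated EAE (median 702) and 628 to 1110 in vehicle EAE (median 929). Farnesol replicates 1, 2 and 3 measured 1130, 1210 and 1040 CPM. Farnesol replicates 4 to 10 ran from 1240 to 2530 CPM (median 1720), with replicate 8 at the top and replicate 9 at the bottom. All 7 of these lay above every other library of the study, whereas untreated, vehicle and naive ranges overlapped. The fitted log2 difference from naive was -0.25 ± 0.16 (SE) in untreated EAE and -0.09 ± 0.16 in vehicle EAE, and 0.92 ± 0.15 in farnesol replicates 4 to 10. Against vehicle, Malat1 was 0.84 ± 0.15 higher in all 10 farnesol libraries, and 0.33 ± 0.19 higher in farnesol replicates 1 to 3 alone. Without farnesol replicate 8, in which the ribosomal RNA gene measured 8668 CPM, the farnesol to vehicle difference was 0.74 ± 0.14. Between the farnesol sets themselves, replicates 4 to 10 were 0.68 ± 0.21 higher, the same direction as CT010467.1 and Rn7sk. Within groups the log2 level of Malat1 had a Pearson r of 0.54 with that of CT010467.1 over 36 libraries, and the part of this RNA in the Malat1 difference was not tested.

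Neat1, the paraspeckle scaffold, separated naive from EAE brains without overlap. Naive libraries measured 46.4 to 64.3 CPM (median 53.2). Untreated EAE ran from 79.0 to 216 CPM (median 111), with replicates 9 and 3 highest, and vehicle EAE from 85.9 to 256 CPM (median 114), with replicate 4 highest. Farnesol replicates 1, 2 and 3 measured 174, 100 and 202 CPM. The other 7 farnesol libraries, replicates 4 to 10, stayed between 94.1 and 133 CPM (median 111), with an SD of 14.9 CPM, against SDs of 50.5 CPM in untreated and 51.1 CPM in vehicle EAE. All 28 EAE libraries lay above all 8 naive ones, and the EAE groups overlapped one another. The log2 difference from naive was 1.26 ± 0.20 in untreated, 1.33 ± 0.20 in vehicle and 1.23 ± 0.19 in farnesol EAE, and 1.06 ± 0.20 in farnesol replicates 4 to 10. Farnesol differed from vehicle by -0.10 ± 0.18 and from untreated by -0.03 ± 0.18. Without vehicle replicate 4 the vehicle to naive difference was 1.16 ± 0.18.

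Sums of several cell type markers differed between naive and EAE libraries, and some of them varied with Neat1 within groups. Infiltrating leukocyte markers (7 of 7 detected, none at 0) summed to 13.8 to 19.9 CPM in naive, 64.5 to 448 in untreated, 33.7 to 995 in vehicle, 52.8 to 613 in farnesol replicates 1 to 3 and 48.8 to 218 CPM in farnesol replicates 4 to 10. The 6 neuron markers summed to 6010 to 6490 CPM in naive, 4980 to 6170 CPM over untreated and vehicle libraries, and 5100 to 6070 CPM in farnesol libraries. Within groups, Pearson r of Neat1 was -0.85 with neuron markers and 0.49 each with leukocyte and oligodendrocyte markers (36 libraries, values that share a total count). It was -0.44 with the 6 neutrophil markers, which summed to 1.61 to 3.86 CPM in naive and 10.7 to 67.2 CPM in EAE libraries. It was 0.41 with choroid plexus markers and 0.47 with the 7 exocrine gland markers, named for a tissue outside the brain. In farnesol libraries the sum of the latter lay almost wholly in Lpo and Amy1, not in Sbp. For the remaining lists r was 0.29 (microglia), -0.30 (astrocyte), -0.29 (olfactory bulb), -0.09 (endothelium) and 0.0 (cerebellar granule neuron). In bulk tissue, fewer cells of a type and less RNA per cell cannot be told apart, and the part of these cells in the Neat1 difference was not tested.

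Miat, the spot-forming RNA of neurons, was higher in most EAE libraries than in most naive ones. Naive brain measured 105 to 222 CPM, with a median of 119, and replicate 4 alone exceeded 142. Untreated EAE ran from 141 to 371 CPM (median 243) and vehicle EAE from 190 to 318 CPM (median 227). Farnesol replicates 1, 2 and 3 measured 325, 394 and 324 CPM, above every vehicle library, and farnesol replicates 4 to 10 measured 216 to 292 CPM (median 241), below all 3 of them. Differences from naive were 0.85 ± 0.15 in untreated, 0.81 ± 0.15 in vehicle, 1.05 ± 0.15 in farnesol EAE and 0.89 ± 0.15 in farnesol replicates 4 to 10. The highest Miat of its group was in each case the library low in cerebellar granule neuron markers: naive 4 (222 CPM), untreated 3 (371 CPM) and farnesol 2 (394 CPM). Without these 3 libraries the differences from naive were 0.90 in untreated, 0.95 in vehicle and 1.13 in farnesol EAE. Within groups Miat had r of -0.61 with the summed cerebellar markers, the lowest of the 6 RNAs.

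Snhg11, the snoRNA host, had a pattern close to that of Miat. It measured 776 to 1170 CPM in naive brain (median 819), 1160 to 2190 in untreated EAE (median 1470) and 1370 to 2150 in vehicle EAE (median 1730). Farnesol replicates 1, 2 and 3 measured 2230, 2390 and 2220 CPM and lay above every other library. Farnesol replicates 4 to 10 measured 1310 to 1790 CPM (median 1620), within the range of untreated EAE and above all naive libraries. Differences from naive were 0.85 ± 0.12 in untreated, 0.96 ± 0.12 in vehicle and 1.02 ± 0.12 in farnesol EAE. Farnesol replicates 1 to 3 were 0.41 ± 0.14 above vehicle, while all 10 farnesol libraries differed from vehicle by 0.06 ± 0.12. Within groups, r of Snhg11 was 0.68 with exocrine gland markers and -0.65 with astrocyte markers, and r of Miat was 0.63 and -0.59. Exocrine gland markers summed to 9.48 to 14.3 CPM in naive, 13.3 to 31.2 in untreated and 17.1 to 30.2 in vehicle libraries. The sums were 24.6 to 30.1 CPM in farnesol replicates 1 to 3 and 16.4 to 22.6 CPM in farnesol replicates 4 to 10. Of these 7 markers Prol1 was at 0 in every library, and Bpifa2, Pip and Smr3a were at 0 throughout some groups. In all 10 farnesol libraries these 4 were at 0 and Sbp was at most 0.0524 CPM. The farnesol sums thus lay almost wholly in Lpo and Amy1, so they are no measure of gland tissue there. Astrocyte markers (6 of 6 detected) summed to 4850 to 6190 CPM in naive and 3990 to 4740 CPM in EAE libraries. The part of these tissues and cells in the Snhg11 and Miat differences was not tested. Of its annotated snoRNAs, Gm25129, which lies outside the exons, held 33 to 110 counts per library and Gm25187 held 0.

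Kcnq1ot1, the imprinting RNA, had overlapping levels in naive, untreated and vehicle brains and was higher in nearly all farnesol libraries. It measured 20.7 to 25.9 CPM in naive (median 25.1), 18.4 to 32.1 in untreated (median 22.9) and 18.7 to 32.8 in vehicle brains (median 25.7). Farnesol replicates 1, 2 and 3 measured 34.2, 37.8 and 33.8 CPM, each above every naive, untreated and vehicle library. Farnesol replicates 4 to 10 measured 30.4 to 47.2 CPM (median 35.7), and 6 of these 7 lay above every vehicle library. The log2 difference from naive was -0.01 ± 0.11 in untreated EAE, 0.09 ± 0.11 in vehicle EAE and 0.62 ± 0.10 in farnesol EAE. Farnesol was above vehicle by 0.53 ± 0.10 over all 10 libraries and by 0.44 ± 0.14 in replicates 1 to 3, and the farnesol sets differed by 0.12 ± 0.15. Kcnq1ot1 thus differed less between the farnesol sets than Malat1 (0.68) or Lncpint (0.93), though differences between members were not tested. The ranges of farnesol replicates 1 to 3 and 4 to 10 overlapped for this RNA.

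Lncpint, the p53-induced RNA, was the scarcest, with 19 to 102 counts per library. A count of 19 has an exact Poisson 95% interval of 11.4 to 29.7, which covers counting error only. It measured 1.72 to 3.46 CPM in naive brain (median 2.31), 0.899 to 1.89 in untreated EAE (median 1.18) and 1.12 to 2.32 in vehicle EAE (median 1.86). Farnesol replicates 1, 2 and 3 measured 1.98, 2.03 and 2.23 CPM, inside the naive range. Farnesol replicates 4 to 10 measured 3.01 to 6.05 CPM (median 3.60), and all 7 lay above every vehicle, untreated and other farnesol library. The log2 difference from naive was -0.91 ± 0.20 in untreated, -0.39 ± 0.20 in vehicle and 0.50 ± 0.19 in farnesol EAE, and 0.73 ± 0.17 in farnesol replicates 4 to 10. Against vehicle it was 0.89 ± 0.18 over all 10 farnesol libraries and 0.19 ± 0.23 in replicates 1 to 3. Between farnesol sets, replicates 4 to 10 were 0.93 ± 0.24 higher.

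**Figure D2:**
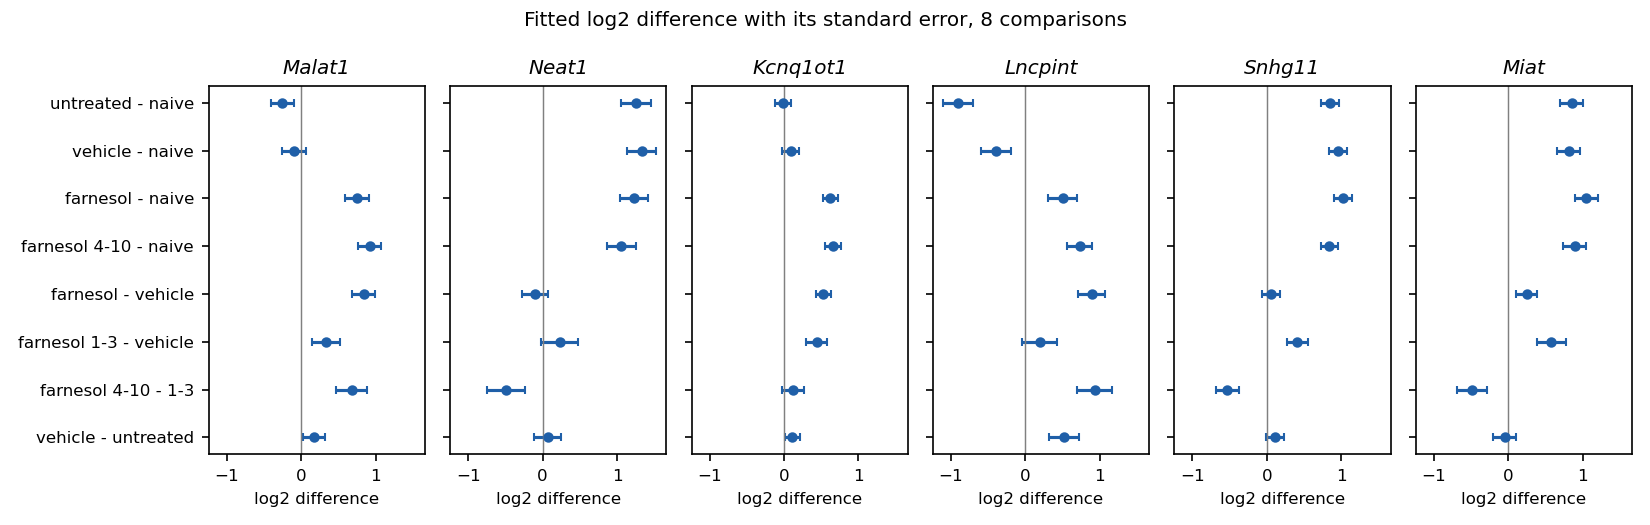
Fitted log2 difference (horizontal axes) of each RNA in 8 comparisons (rows), with points as estimates and bars as 1 SE. Neat1, Snhg11 and Miat lie to the right of 0 in all comparisons with naive brain. In the row of farnesol replicates 4 to 10 against 1 to 3, Malat1 (0.68), Lncpint (0.93) and Kcnq1ot1 (0.12) lie to the right of 0. In that row Neat1 (-0.49), Snhg11 (-0.53) and Miat (-0.49) lie to the left.

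The order of groups by mean level differed between the RNAs. Malat1 ran from untreated (796 ± 242 CPM, SD, n = 9) through vehicle (894 ± 189, n = 9), naive (950 ± 64.4, n = 8) and farnesol replicates 1 to 3 (1130 ± 80.8, n = 3) to farnesol replicates 4 to 10 (1800 ± 408, n = 7). In that order, the first 4 sets overlapped each with its neighbour, and the last step did not overlap. For Neat1 the order was naive (54.1 ± 5.18 CPM), farnesol replicates 4 to 10 (113 ± 14.9), untreated (129 ± 50.5), vehicle (136 ± 51.1) and farnesol replicates 1 to 3 (159 ± 52.6). Only the first step of the Neat1 order was free of overlap. Kcnq1ot1 ran from untreated (24.1 ± 4.72 CPM), naive (24.3 ± 1.94) and vehicle (25.9 ± 4.38) to farnesol replicates 1 to 3 (35.3 ± 2.20) and 4 to 10 (38.3 ± 6.78), with the gap between vehicle and farnesol replicates 1 to 3. Lncpint ran from untreated (1.28 ± 0.296 CPM) through vehicle (1.82 ± 0.421), farnesol replicates 1 to 3 (2.08 ± 0.134) and naive (2.38 ± 0.610) to farnesol replicates 4 to 10 (3.97 ± 1.12), and every neighbouring pair overlapped. Snhg11 ran from naive (885 ± 138 CPM) through farnesol replicates 4 to 10 (1580 ± 184), untreated (1600 ± 367) and vehicle (1720 ± 245) to farnesol replicates 1 to 3 (2280 ± 94.0), and the first and last steps did not overlap. Miat ran from naive (133 ± 38.0 CPM) through vehicle (233 ± 41.0), untreated (241 ± 70.3) and farnesol replicates 4 to 10 (247 ± 25.8) to farnesol replicates 1 to 3 (348 ± 40.1), with only the last step free of overlap.

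Counts past the threshold, an adjusted p below 0.05 in edgeR's quasi-likelihood test, are set beside the share of all 18438 genes past it. For untreated against naive, 4 of the 6 RNAs were past it (Neat1, Snhg11 and Miat higher, Lncpint lower), where 24.9% of all genes were (13.6% higher, 11.3% lower). For vehicle against naive there were 3 (Neat1, Snhg11 and Miat, all higher), beside 31.5% of genes (16.3% higher, 15.2% lower). All 6 were past it and higher in farnesol against naive, beside 34.2% of genes (17.9% higher, 16.3% lower), and all 6 again in farnesol replicates 4 to 10 against naive, beside 26.3%. Of the comparisons among EAE groups, vehicle against untreated had 0 of 6, beside 0.0217% of genes. Farnesol against vehicle and farnesol against untreated each had 3, namely Malat1, Kcnq1ot1 and Lncpint, beside 0.0922% and 1.87% of genes. Between the farnesol sets, and between farnesol replicates 1 to 3 and vehicle, there were 0, beside 0.396% and 0.00542% of genes. Nothing is read from these counts, since the RNAs were chosen from the same values. The median log2 difference of the 6 was 0.42 in untreated, 0.45 in vehicle and 0.88 in farnesol brains against naive, beside medians of -0.01, 0.00 and 0.01 over all genes. The comparisons with naive share the naive libraries, and those of farnesol with vehicle and with untreated share the farnesol ones.

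The split in CT010467.1 bears on these counts. Comparing farnesol replicates 4 to 10 with naive in a fit of only those 15 libraries gave differences of 0.93 ± 0.10 for Malat1, 1.07 ± 0.07 for Neat1, 0.66 ± 0.09 for Kcnq1ot1, 0.74 ± 0.18 for Lncpint, 0.84 ± 0.08 for Snhg11 and 0.89 ± 0.12 for Miat. A term for library set was estimated from the farnesol libraries alone. With it, 0 of the 6 were past the threshold in untreated or vehicle against naive, beside 175 and 684 of all 18438 genes. The term makes farnesol against naive the same comparison as farnesol replicates 4 to 10 against naive, where 6 were past the threshold, beside 4840 of all genes. It likewise makes farnesol against vehicle or untreated a comparison of replicates 1 to 3, only 3 libraries, with those groups, where 0 were past it. Over all genes 1 passed there against vehicle and 56 against untreated. Under that term, Neat1 differed from naive by 0.77 ± 0.32 in untreated and 0.84 ± 0.32 in vehicle brains, Snhg11 by 0.32 ± 0.19 and 0.43 ± 0.19, and Miat by 0.36 ± 0.25 and 0.31 ± 0.25. Malat1 differed from naive by 0.42 ± 0.25 and 0.59 ± 0.25, Kcnq1ot1 by 0.11 ± 0.18 and 0.21 ± 0.18, and Lncpint by 0.01 ± 0.32 and 0.54 ± 0.29. Farnesol to vehicle differences under it repeat those of replicates 1 to 3 alone: 0.33 ± 0.19 for Malat1, 0.44 ± 0.14 for Kcnq1ot1 and 0.19 ± 0.23 for Lncpint. Without the 8 libraries in which Sbp was above 1 CPM, farnesol against vehicle had 0 of the 6 past the threshold, beside 7 of 19063 genes. The differences there were 0.81 ± 0.16 for Malat1, 0.51 ± 0.12 for Kcnq1ot1 and 0.83 ± 0.21 for Lncpint.

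All 6 RNAs varied more among libraries of a group than the median gene. The SD of the log2 level within groups was 0.40 for Neat1, 0.31 for Malat1 and Miat, 0.28 for Lncpint, 0.23 for Snhg11 and 0.22 for Kcnq1ot1. The median over the 11301 genes with a mean log2 CPM of at least 3 was 0.13, and over all 18438 genes it was 0.18. Lncpint, with mean log2 CPM of 0.81 to 2.13 by group, lies below that level, where counting error is larger. This spread was not even between groups: the coefficient of variation of Malat1 was 6.79% in naive and 30.4% in untreated brains, and that of Neat1 9.57% and 39.0%. Counting error alone gave at most 1.02% for Malat1 and 3.27% for Neat1, but up to 22.9% for Lncpint, whose coefficient of variation was 25.6% in naive and 23.2% in untreated brains.

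After each library was centred on its group, the 6 RNAs formed 2 close pairs. Malat1 and Kcnq1ot1 had r of 0.86, and so did Snhg11 and Miat (36 libraries, given as a description). By group, r of the first pair was 0.39 among naive libraries, 0.95 among untreated, 0.79 among vehicle and 0.89 among farnesol replicates 4 to 10. For the second pair it was 0.95, 0.86, 0.85 and 0.78. Lncpint had r of 0.66 with Malat1 and 0.65 with Kcnq1ot1, and 0.20 with Snhg11. Neat1 was least like the others, with r between 0.18 (Lncpint) and 0.51 (Snhg11), although it lies near Malat1 on the chromosome (r of 0.43). Without the 3 libraries low in cerebellar markers the pairs had r of 0.85 and 0.81. These values share depth, scaling and RNA preparation, and r with the log2 level of CT010467.1 was 0.40 for Kcnq1ot1, 0.38 for Miat, 0.35 for Lncpint, 0.09 for Snhg11 and -0.03 for Neat1.

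**Figure D3:**
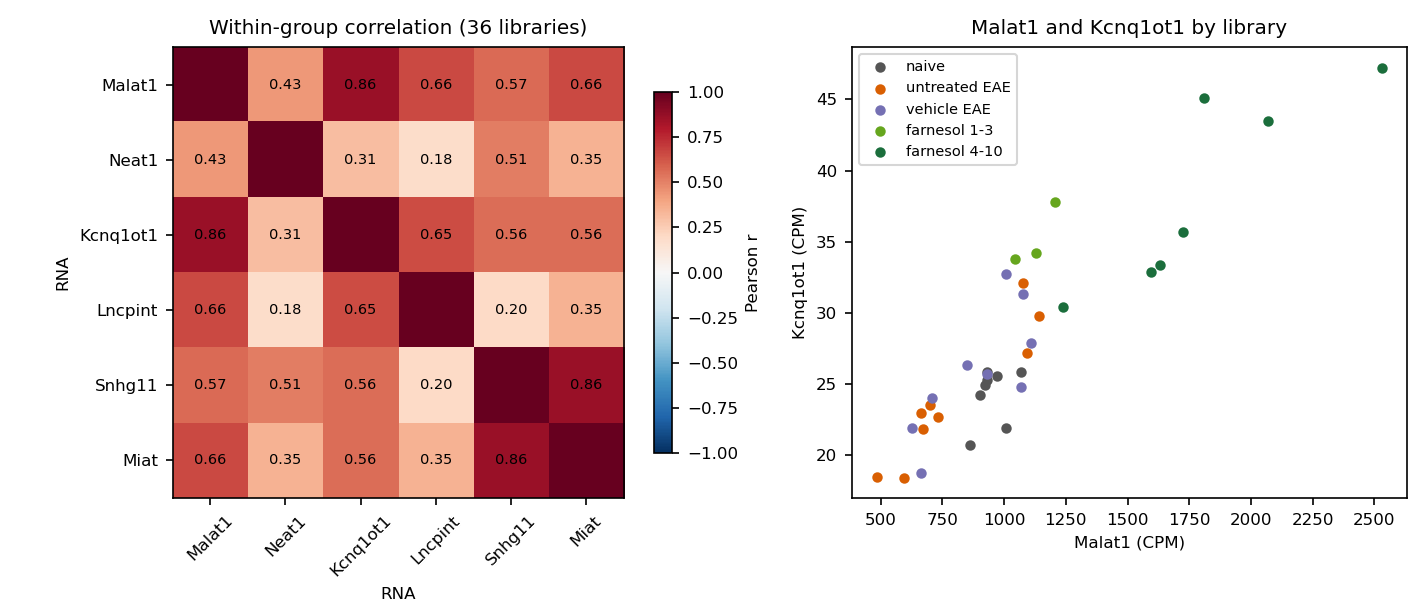
Left, Pearson r of each pair of RNAs over 36 libraries after centring on group means (colour and number), with 0.86 for Malat1 with Kcnq1ot1 and for Snhg11 with Miat. Right, Kcnq1ot1 against Malat1 in CPM, 1 point per library coloured by group; farnesol replicates 4 to 10 extend to 2530 CPM of Malat1 and 47.2 CPM of Kcnq1ot1.

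Genes most like each RNA, by the same centred correlation among genes with a mean log2 CPM of at least 3, were partly other members. The closest to Malat1 after Kcnq1ot1 were Meg3, an imprinted long noncoding RNA, and Col11a2, a collagen chain (r of 0.78 each). Kcnq1ot1 was closest to Malat1, Ubn2 (0.82), a chromatin protein of the histone chaperone HIRA complex, and 9330162G02Rik (0.80). Neat1 was closest to Cercam (0.80), Cers2 (0.78), a ceramide synthase of myelin lipids, and Nrip2 (0.73). Lncpint was closest to Malat1, Kcnq1ot1 and Lars2 (0.64), the mitochondrial leucyl-tRNA synthetase. Snhg11 was closest to Fam193b (0.90), Srsf11 (0.89), a splicing factor of speckles, and Lrrc45 (0.89), a centrosome protein. Miat was closest to Meg3 (0.94), Tspoap1 (0.89), a presynaptic scaffold, and Agrn (0.88), the synapse organizer agrin.

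Lists of genes tied to the RNAs' roles were then read in the comparisons with naive brain. They were chosen with earlier results of these data known, so their counts and adjusted p are a description. Adjusted p here is from edgeR over all genes, and each list's counts stand beside the shares of all genes given above: 13.6% higher and 11.3% lower in untreated, 16.3% and 15.2% in vehicle, and 17.9% and 16.3% in farnesol EAE. Of the speckle and splicing proteins, the partners of Malat1, 19 of 22 rose in untreated EAE and 0 fell, 19 rose in vehicle and 18 in farnesol EAE, with median log2 changes of 0.31, 0.37 and 0.35 (all genes -0.01, 0.00 and 0.01). In untreated EAE the smallest p belonged to the splicing factors Srsf6 (0.45 ± 0.06, adjusted p = 3.46e-06), Srsf2 (0.36 ± 0.05, adjusted p = 3.76e-06) and Luc7l3 (0.52 ± 0.08, adjusted p = 1.32e-05). In vehicle and farnesol EAE it belonged to Srsf5, another SR protein, which rose by 0.67 ± 0.07 in each (adjusted p = 5.03e-08 and 3.39e-08). In farnesol replicates 4 to 10 against naive 18 of 22 rose, including Srsf5 (0.60 ± 0.07, adjusted p = 8.81e-07) and Luc7l3 (0.53 ± 0.08, adjusted p = 7.85e-06). With library set as a term, 0 rose in untreated and 2 in vehicle EAE. Under that term 175, 684 and 4840 of all 18438 genes passed in untreated, vehicle and farnesol EAE against naive. The later list counts under the term stand beside these.

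Paraspeckle proteins, which assemble on Neat1, moved in part. Of 21, 7 rose and 1 fell in untreated, 8 rose and 0 fell in vehicle, and 7 rose and 4 fell in farnesol EAE (medians 0.05, 0.12 and 0.03). Hnrnpm, an RNA-binding protein of alternative splicing, rose by 0.41 ± 0.04 in untreated EAE (adjusted p = 1.65e-08), 0.40 ± 0.04 in vehicle (adjusted p = 2.24e-08) and 0.26 ± 0.04 in farnesol EAE (adjusted p = 1.82e-05). Sfpq, an essential paraspeckle protein, rose by 0.38 ± 0.06 in untreated EAE (adjusted p = 2.67e-05), and farnesol differed from untreated EAE by -0.30 ± 0.06 (adjusted p = 0.00325). Nono, its partner, measured -0.06 ± 0.04 in untreated EAE (adjusted p = 0.23) and fell by 0.10 ± 0.03 in farnesol EAE (adjusted p = 0.0222). With library set as a term, 1 rose in untreated and 1 in vehicle EAE, and 7 in farnesol EAE.

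Of the other snoRNA host transcripts, 14 tested of 19 listed, 8 rose in untreated, 10 in vehicle and 11 in farnesol EAE, and 0 fell in each, with medians of 0.30, 0.38 and 0.39. The remaining 6, 4 and 3 did not pass, among them Snhg18 (-0.27 ± 0.17, -0.03 ± 0.17 and -0.02 ± 0.17). Snhg1 rose by 0.55 ± 0.10 (adjusted p = 0.000133), 0.77 ± 0.10 (adjusted p = 7.95e-07) and 0.72 ± 0.10 (adjusted p = 1.85e-06) in untreated, vehicle and farnesol EAE. Snhg20 rose by 0.65 ± 0.12 (adjusted p = 0.000158), 0.83 ± 0.12 (adjusted p = 4.03e-06) and 0.85 ± 0.12 (adjusted p = 1.95e-06). Without the Sbp libraries 5 rose in untreated EAE, and with library set as a term 0 rose in untreated and 1 in vehicle EAE. Within farnesol replicates 4 to 10 against naive 9 rose and 0 fell.

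A list of other nuclear or regulatory noncoding RNAs, 16 tested of 20 listed, which includes short ones such as Rn7sk, held calls in both directions. In untreated EAE 4 rose and 4 fell, in vehicle 4 and 4, and in farnesol EAE 5 and 3 (medians -0.03, 0.03 and 0.16), with Rn7sk among the falls in untreated and vehicle EAE. Firre, an X-linked RNA that organizes nuclear architecture, rose by 0.70 ± 0.10 (adjusted p = 3.5e-06), 0.92 ± 0.10 (adjusted p = 2.68e-08) and 0.91 ± 0.10 (adjusted p = 2.23e-08). Mir124a-1hg, the host transcript of a neuronal microRNA, rose by 0.73 ± 0.10 (adjusted p = 1.49e-06), 0.88 ± 0.10 (adjusted p = 4.21e-08) and 0.81 ± 0.09 (adjusted p = 1.3e-07). Ftx, an RNA of the X-inactivation center, rose by 0.83 ± 0.13 in vehicle (adjusted p = 7.06e-06) and 0.85 ± 0.12 in farnesol EAE (adjusted p = 3.6e-06). Rn7sk fell by 1.67 ± 0.29 in untreated EAE (adjusted p = 7.23e-05) and was higher in farnesol than in vehicle EAE by 2.05 ± 0.28 (adjusted p = 0.000107), and higher in farnesol replicates 4 to 10 than in replicates 1 to 3 by 1.94 ± 0.30 (adjusted p = 0.000545). These differences ran in the direction of the split in CT010467.1. On the same side of that split, Rn7sk measured 6.34 to 10.6 CPM (median 7.37) in naive libraries. It measured 8.27 to 22.5 CPM (median 13.9) in farnesol replicates 4 to 10.

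Of the genes of the Kcnq1 imprinted domain, 10 tested of 12 listed, 1 rose and 3 fell in untreated, 1 rose and 2 fell in vehicle, and 0 rose and 2 fell in farnesol EAE, so that 4, 3 and 2 of 10 passed beside 24.9%, 31.5% and 34.2% of all genes. With library set as a term, 0 fell in untreated and vehicle EAE and 2 in farnesol EAE, there replicates 4 to 10 alone. Cdkn1c, an imprinted cell cycle inhibitor that Kcnq1ot1 silences on the paternal chromosome, fell by 0.38 ± 0.10 in untreated EAE (adjusted p = 0.00512). There Kcnq1ot1 differed from naive by -0.01 ± 0.11. In farnesol EAE, where Kcnq1ot1 was higher, Cdkn1c was not past the threshold (-0.17 ± 0.10, adjusted p = 0.191). Tspan32, the only gene of the list that rose, did so by 1.61 ± 0.45 in untreated EAE (adjusted p = 0.00808), from a mean of 0.378 CPM in naive brain. Th, tyrosine hydroxylase of dopamine neurons, fell by 0.53 ± 0.13 in untreated (adjusted p = 0.00288) and 0.54 ± 0.13 in farnesol EAE (adjusted p = 0.00141). Th is also 1 of the 6 olfactory bulb markers, whose sum had a median of 81.5 CPM in naive libraries (range 30.9 to 105). Its median was 34.6 CPM in untreated, 37.3 in vehicle and 29.2 CPM in farnesol libraries. The part of olfactory bulb tissue in the Th difference was not tested. Nap1l4, a histone chaperone, fell by 0.15 ± 0.03 in farnesol EAE (adjusted p = 0.00141). Neighbours of Malat1 and Neat1 were in part higher in EAE: of 9 tested (11 listed), 6, 5 and 4 rose in untreated, vehicle and farnesol EAE and 0 fell. Sipa1, a GTPase activator for Rap1, rose by 0.48 ± 0.09 in untreated EAE (adjusted p = 0.000232), Slc25a45, a mitochondrial carrier, by 0.84 ± 0.20 (adjusted p = 0.00178), and Dpf2, a subunit of the BAF remodelling complex, by 0.17 ± 0.04 (adjusted p = 0.00133).

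Lists tied to Lncpint held calls in both directions. Of 20 p53 target genes, 3 rose and 1 fell in untreated, 4 rose and 3 fell in vehicle, and 1 rose and 2 fell in farnesol EAE, that is 4, 7 and 3 of 20 beside 24.9%, 31.5% and 34.2% of all genes. With library set as a term, 0 rose in each of the 3 comparisons, and 0, 0 and 1 fell. Cdkn1a, the p53-induced cell cycle inhibitor p21, rose by 0.86 ± 0.16 in untreated EAE (adjusted p = 0.000193), where Lncpint was lower than in naive brain, and farnesol differed from untreated EAE by -0.83 ± 0.15 (adjusted p = 0.00228). Pmaip1, the apoptosis protein Noxa, rose by 0.71 ± 0.17 in untreated EAE (adjusted p = 0.0024), and Zmat3, an RNA-binding p53 target, fell by 0.18 ± 0.05 (adjusted p = 0.00262). Of 11 Polycomb repressive complex 2 genes, 4 rose and 1 fell in untreated and vehicle EAE, and 3 rose and 2 fell in farnesol EAE. Ezh2, the catalytic subunit, rose by 0.39 ± 0.12 in untreated (adjusted p = 0.0176) and 0.55 ± 0.12 in farnesol EAE (adjusted p = 0.000556), and the accessory subunit Phf1 by 0.28 ± 0.06 in each (adjusted p = 0.000888 and 0.000556).

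Proteins that bind Miat or trim nuclear RNA completed the lists. Of 8 CELF, QKI and SF1 genes, 1 passed in each comparison: Sf1, the branchpoint binding protein, rose by 0.11 ± 0.04 in untreated EAE (adjusted p = 0.0326), and Celf4, a neuronal RNA-binding protein, fell by 0.15 ± 0.05 in vehicle (adjusted p = 0.0281) and 0.19 ± 0.05 in farnesol EAE (adjusted p = 0.00579). Of 16 genes of the nuclear RNA exosome and its adaptors, 6 rose in each of the untreated, vehicle and farnesol comparisons, and 1 fell in farnesol EAE. Pabpn1, the nuclear poly(A)-binding protein, rose by 0.62 ± 0.11 (adjusted p = 7.2e-05), 0.82 ± 0.11 (adjusted p = 9.11e-07) and 0.81 ± 0.11 (adjusted p = 8.35e-07) in the 3 comparisons. Zfc3h1, which links poly(A) RNA to the exosome, rose by 0.47 ± 0.08 (adjusted p = 6.62e-05), 0.51 ± 0.08 (adjusted p = 1.22e-05) and 0.60 ± 0.08 (adjusted p = 8.18e-07). 

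Between EAE groups, calls in the 10 lists are set beside the shares of all genes past the threshold. Vehicle against untreated had 0, beside 0.0217% of all genes. Farnesol against vehicle had 1, Rn7sk, beside 0.0922%. Farnesol against untreated had 6, beside 1.87%. These were Sfpq, Cdkn1a and Rn7sk, and 3 more. The paraspeckle proteins Rbm14 (-0.24 ± 0.05, adjusted p = 0.00447) and Hnrnpm (-0.16 ± 0.04, adjusted p = 0.0292) were lower. The neural RNA Mir9-3hg (0.27 ± 0.06, adjusted p = 0.0137) was higher. Within farnesol EAE, replicates 4 to 10 had lower Sf3b1 (-0.30 ± 0.07, adjusted p = 0.0374), a core spliceosome subunit, lower Rbm39 (-0.29 ± 0.07, adjusted p = 0.0437), a splicing coactivator, and lower Sfpq (-0.32 ± 0.07, adjusted p = 0.024) than replicates 1 to 3. Rn7sk was higher in replicates 4 to 10, and 0.396% of all genes passed in that comparison. With library set as a term, genes of the noncoding RNA list that rose numbered 0 in untreated and 2 in vehicle EAE, exosome genes 0 and 1, neighbours of Malat1 and Neat1 0 and 0, and Polycomb genes 0 and 0.

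**Figure D4:**
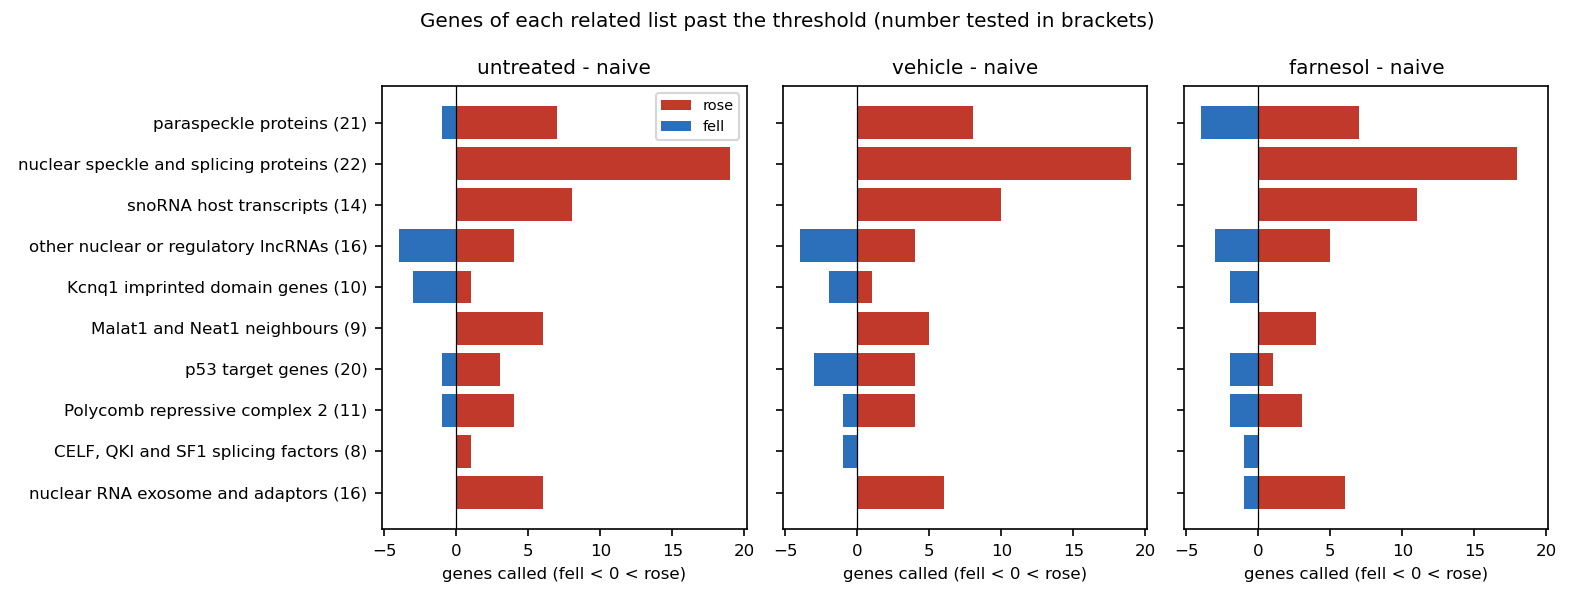
Number of genes of each of 10 lists that rose (bars to the right of 0) or fell (bars to the left) in untreated, vehicle and farnesol EAE against naive brain, with the number tested in brackets. Speckle and splicing proteins show 19, 19 and 18 rises and 0 falls.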

How the data were processed

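The deposited values were raw gene counts, 1 column for each library. RNA was extracted with RNeasy kits and libraries with NEBNext Ultra reagents, as the labels' protocols say. Reads were mapped with STAR 2.5 to mm10, per the submitters' processing notes. The extraction protocol also names Kallisto, and the counter was not given in the sources used here, nor the annotation release. Symbols came from GENCODE M21 by gene identifier.

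Genes were filtered with filterByExpr (minimum count 10, minimum total 15), which left 18438 of 54532, scaled by TMM and fitted with edgeR 4.0.16 (R 4.3.3, glmQLFit and glmQLFTest), with 1 mean per group over all 36 libraries and the farnesol libraries as 2 sets in a second fit. Benjamini-Hochberg adjustment ran over all genes tested, and an adjusted p below 0.05 was called. The SE is the log2 change over the square root of F. Correlations used log2(CPM + 0.5). From each related list, up to 3 genes of smallest p past the threshold were named, and for each RNA the 3 genes most like it; Nono and Snhg18 were named after their values were seen. The RNAs, lists and alternatives were chosen with earlier results of these data known. Alternatives used DESeq2 1.42.0, limma 3.58.1 and sva 3.50.0, and the steps were tested on simulated data. Nothing states that libraries of a group came from separate animals, so p-values measure only the spread between libraries. No 2 libraries of a group agreed within counting noise. Figures used matplotlib 3.10.9 (Python 3.11.15).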

Additional observations from a re-analysis of the deposited data

Results flagged for a closer look

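In 30 combinations of RNA and group, of which chance flags about 5%, 2 held a library far from the others of its group. Neat1 measured 256 CPM in vehicle replicate 4, where the next highest of the 9 vehicle libraries measured 163 CPM. That library also had the highest summed leukocyte markers (995 CPM) and microglia markers (622 CPM) and the lowest summed neuron markers (4980 CPM) of its group. Miat measured 222 CPM in naive replicate 4, where the next highest of the 8 naive libraries measured 142 CPM, and the summed cerebellar granule neuron markers of that library were 144 CPM, against 991 to 1290 CPM in the other naive libraries. Without naive replicate 4, Miat differed from naive by 1.00 ± 0.15 in untreated, 0.95 ± 0.15 in vehicle and 1.20 ± 0.14 in farnesol EAE. The part of these cell types in the levels was not tested.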

How the results depend on the processing

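Of 319 recomputed counts of the 6 RNAs past the threshold, 312 stayed within 1.5 times the first count and 7 did not. With library set as a term (chosen after seeing the data), untreated and vehicle against naive, and farnesol against vehicle and untreated, each had 0, and over all genes 175, 684, 1 and 56 passed. Under that term the last 2 compare only farnesol replicates 1 to 3 with those groups. Lncpint in untreated against naive turned from -0.91 to 0.01 ± 0.32 there. Farnesol against vehicle had 0 without the Sbp libraries (also added later) and 0 with replicate number as a block. The farnesol sets differed in 1 RNA (Lncpint) by DESeq2. Of 1914 recomputed log2 differences, 1880 moved by at most 1 SE, 33 by more and 1 reversed. A reversal was counted only for differences past the threshold in the first fit. Others also changed sign with library set as a term. Malat1 went from -0.25 to 0.42 in untreated and from -0.09 to 0.59 in vehicle against naive. Lncpint went from -0.39 to 0.54 in vehicle against naive. Leaving out 1 library at a time left 5 to 6 past the threshold in farnesol against naive, 2 to 3 in farnesol against vehicle, 3 in farnesol against untreated, 4 in untreated and 3 in vehicle against naive. Lncpint alone lost its call, for farnesol against naive without farnesol 8 or 10 or naive 1, 2, 6 or 8, and for farnesol against vehicle without vehicle 2, 3, 5, 8 or 9 or farnesol 4, 6, 8 or 10.

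Over all genes, farnesol against vehicle had 17 past the threshold, 42 by DESeq2, 8 in a fit of only those groups, and 7 with the block or without the Sbp libraries. Farnesol against untreated had 345, and 521, 128 and 202 by DESeq2, the 2 groups alone and the block, 557 with 1 surrogate variable, 225 without the Sbp libraries and 567 without those low in cerebellar markers. Vehicle against untreated had 4, and between 0 (1 surrogate variable, or without the Sbp libraries) and 29 (DESeq2). The farnesol sets differed in 73 genes, 221 by DESeq2, 41 with no filter and 8 without the libraries low in cerebellar markers. Farnesol replicates 1 to 3 against vehicle had 1, and 52 by DESeq2. Untreated and vehicle against naive had 4586 and 5808 before the library set term. No pairing by replicate number was seen between groups. Of 51 same-numbered pairs 16 had r over 0.1 (median 0.05), beside 143 of 434 other-numbered pairs (median 0). Only 4 of 36 libraries were most like one of their own number. These correlations cannot exclude a shared factor with a small effect. Depth limits Lncpint most.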

Other observations

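The direction seen in the 6 RNAs can be set beside that of all annotated long noncoding RNA genes. Of 1951 tested, 9.38% were higher and 3.49% lower in untreated EAE than in naive brain, 15.5% and 2.92% in vehicle EAE, and 23.4% and 2.05% in farnesol EAE (adjusted p below 0.05, edgeR). Of 15322 protein-coding genes, 14.5% were higher and 12.6% lower in untreated, 16.8% and 17.6% in vehicle, and 17.1% and 19.2% in farnesol EAE. Of the 1165 genes of other or unnamed type, 8.41% were higher and 6.70% lower in untreated, 12.1% and 4.12% in vehicle, and 19.7% and 1.89% in farnesol EAE. The median log2 difference of the long noncoding genes was 0.08, 0.16 and 0.27, and 0.27 in farnesol replicates 4 to 10 against naive. For the genes of other or unnamed type it was 0.01, 0.10, 0.28 and 0.28. That class also holds other noncoding transcripts, so it cannot show whether this direction was particular to long noncoding RNAs. The 3 comparisons share the naive libraries, and the difference between the gene classes was not tested.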
